A study of Mus musculus with 16 samples.

Results

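The genes described here encode the protein subunits of the cytosolic ribosome, the particle that makes every protein of the cell outside mitochondria. They were chosen by name, as all entries of the table whose symbol has the form of a small-subunit (Rps) or large-subunit (Rpl) gene, with or without a closing a or x, together with the 3 stalk genes Rplp0, Rplp1 and Rplp2, and by a mean level of at least 1 CPM (counts scaled to a library of fixed size) over the 16 livers. The rule found 75 genes among 27446 entries, 29 of the small (40S) and 46 of the large (60S) subunit. All 75 entries with such a symbol passed the floor, with means from 34.4 CPM (Rpl21) to 459 CPM (Rpl4), so no member sat near it, and all 75 had enough counts to be tested. The rule used no difference between groups. Rpsa, Fau and Rps3a1, which also encode ribosomal proteins, have symbols of another form and are given apart.

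Total RNA of livers from wild-type C57BL/6 mice was sequenced. Of the livers, 8 came from mice that received emodin, a plant anthraquinone known from rhubarb, into the stomach for 3 weeks at a dose of 400 mg/kg. The other 8 came from mice given the carrier of both groups, CMC-Na at 0.5%, without emodin (vehicle). Both groups carried the same genotype and livers were taken after the last dose. Age and sex are not stated in the sources used here, nor whether every library is a separate animal, so p-values measure the spread between libraries, which may be technical. The library totals ran from 28.7 to 38.6 M (mega) estimated counts in vehicle livers (32.3 ± 3.16 M, SD, n = 8) and from 28.3 to 48.2 M in emodin livers (38.6 ± 6.91 M, SD, n = 8). None of the marker genes fixed for hepatocytes or other cells was at 0 in every liver.

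Ribosomal protein mRNAs are short, abundant and made in near-equal amounts in most cells, since the subunits are assembled with fixed proportions of each protein. Many begin with a run of pyrimidines (the TOP motif), through which mTOR and the RNA-binding protein LARP1 control their translation as a group. The liver, which secretes most plasma proteins, depends heavily on ribosomes, and their production begins in the nucleolus with rRNA synthesis by RNA polymerase I and a long series of assembly factors.

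The stretches around the starts of the 6 genes that passed the test and of the 2 genes with the smallest fold changes are shown so that the start regions of members that passed can be read beside those of members that barely differed. Each runs 5′ to 3′ from 60 bases before the gene's start to the 30 bases that follow it in RefSeq (GRCm38.p6, the build also called mm10), and capitals mark CTTTCC (sense strand, within 25 bases of the start), CCGGAAG or AAGATGGC (either strand).
Rps27, chr3:90213619-90213708, minus strand: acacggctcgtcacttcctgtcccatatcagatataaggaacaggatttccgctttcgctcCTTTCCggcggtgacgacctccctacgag
Rpl37, chr15:5116553-5116642, plus strand: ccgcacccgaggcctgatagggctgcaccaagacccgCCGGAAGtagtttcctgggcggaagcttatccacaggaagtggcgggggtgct
Rpl12, chr2:32961652-32961741, plus strand: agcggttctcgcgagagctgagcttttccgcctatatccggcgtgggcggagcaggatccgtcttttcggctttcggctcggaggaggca
Rps26, chr10:128626477-128626566, minus strand: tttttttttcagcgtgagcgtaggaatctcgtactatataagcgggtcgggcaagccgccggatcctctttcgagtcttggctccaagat
Rpl27, chr11:101442185-101442274, plus strand: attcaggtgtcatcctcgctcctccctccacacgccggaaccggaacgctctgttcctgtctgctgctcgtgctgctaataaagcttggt
Rps10, chr17:27635215-27635304, minus strand: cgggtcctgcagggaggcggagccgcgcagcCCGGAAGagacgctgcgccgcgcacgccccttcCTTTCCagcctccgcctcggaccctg
Rps2, chr17:24720003-24720092, plus strand: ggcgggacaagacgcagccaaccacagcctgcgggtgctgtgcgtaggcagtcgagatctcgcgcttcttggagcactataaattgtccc
Rps4x, chrX:102189362-102189451, minus strand: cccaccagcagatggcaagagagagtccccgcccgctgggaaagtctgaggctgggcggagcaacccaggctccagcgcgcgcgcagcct
CTTTCC, part of a pyrimidine run like those at TOP mRNA starts, lay near the start of Rps27 and Rps10, and within these stretches CCGGAAG, a core of ETS factor sites, lay upstream of Rpl37 and Rps10. Windows of 300 bases were found in RefSeq for 55 of the 75 members. Outside the bases printed above, these windows also held CCGGAAG for Rps26 and Rps2, and AAGATGGC for Rps27. CTTTCC was present near the start of 10 of the 55 members with a window (18.2%). The background was 2.92% of all 27025 genes with a window, whether tested here or not. CCGGAAG was found in the windows of 22 members (40%) and in 9.93% of all genes, and AAGATGGC, a core of YY1 sites, in 5 members (9.09%) and 3.19% of all genes. A CCGGAAG match can share its last bases, AAG, with an AAGATGGC match. In the GENCODE M21 transcripts, which give starts for all 75 members, 11 (14.7%) began with C and 4 further pyrimidines, against 2.45% of 12826 tested protein-coding genes. These are matches of letters at annotated starts, which can lie some bases from the start used in liver.

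Of the 75 genes, 6 rose with emodin by edgeR's quasi-likelihood F test at an adjusted p under 0.05 (Benjamini-Hochberg, over all 14308 entries tested), 0 fell and 69 did not pass. That share of 8% is near the background, since 7.7% of all entries tested rose and 5.47% fell (13.2% in either direction), so the count of calls says nothing about ribosomal protein genes as such. What the members shared in this fit was a small difference of 1 sign. Of 75 log2 fold changes (emodin over vehicle) 73 (97.3%) were above 0, against 51.6% of all entries. Their median was 0.19 (1.14-fold) against 0.01 over all entries. At an unadjusted p under 0.05, 29 members (38.7%) were higher and 0 lower, against 16.5% and 13.2% of all entries. The difference was borne by some of the emodin livers. In at least 4 emodin livers 50 members (66.7%) were above every vehicle liver, against 18.3% of all entries. In all 8 emodin livers 0 members were, against 0.937% of all entries.

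The share of all counts taken by the 75 genes was 1.13 ± 0.13% in vehicle livers (0.915% to 1.29%) and 1.31 ± 0.205% in emodin livers (SD, n = 8 each). In bulk liver, fewer cells of a type and less RNA per cell cannot be told apart. In emodin livers 1 to 8 the share was 1.08%, 1.51%, 1.3%, 1.61%, 1.13%, 1.39%, 1.08% and 1.43%. The median over members of the log2 difference from the vehicle mean was 0.452, 0.287, 0.357 and 0.407 in emodin 2, 3, 4 and 6, above the highest vehicle liver (0.172). The same median was -0.0977, 0.0153, 0.00459 and 0.116 in emodin 1, 5, 7 and 8, inside the vehicle range, which began at -0.252. By share of counts, which is not TMM-scaled, emodin 8 (1.43%) lay above the vehicle maximum of 1.29%. The place of emodin 8 inside the vehicle range therefore depends on the scaling. By the same share emodin 3 (1.298%) was only just above the vehicle maximum (1.290%) and below emodin 8. Emodin 2, 3, 4 and 6 had 68, 50, 61 and 62 of the 75 members above every vehicle liver, whereas emodin 1, 5, 7 and 8 had 2, 3, 0 and 16, and emodin 1 had 12 members below every vehicle liver. For 54 of the 75 genes the 4 highest emodin livers were these same 4. Both subunits moved alike in each liver: the medians of the 40S genes were 0.446, 0.271, 0.335 and 0.406 in emodin 2, 3, 4 and 6, and those of the 60S genes 0.472, 0.299, 0.366 and 0.424.

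**Figure D1:**
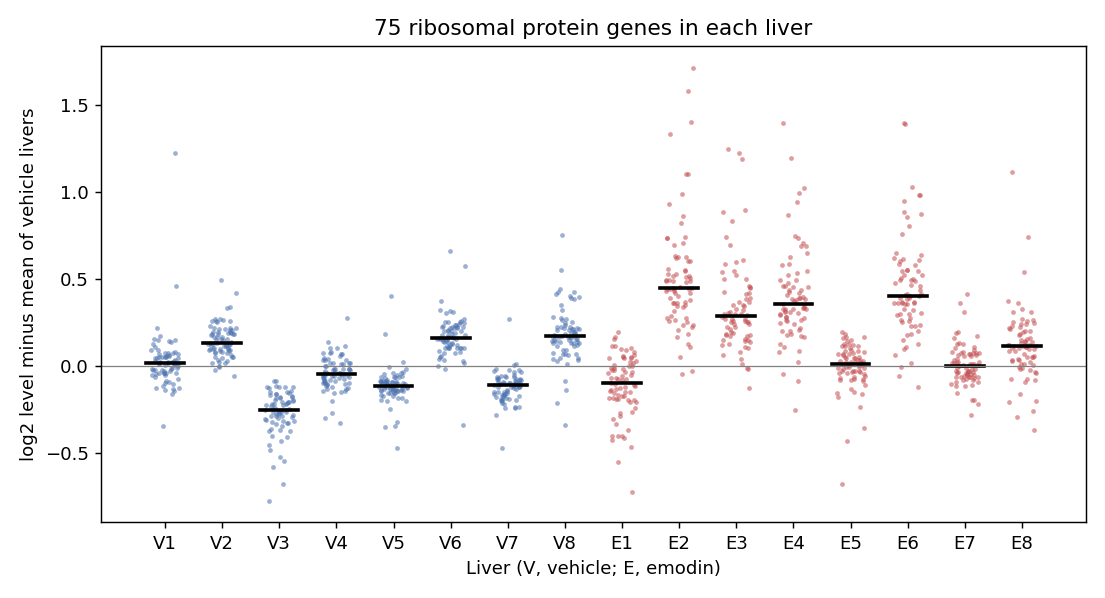
Each point is 1 of the 75 ribosomal protein genes in 1 liver, as the log2 level in TMM-scaled CPM minus the mean of the 8 vehicle livers, and black bars are the medians over genes. Emodin 2, 3, 4 and 6 have medians of 0.287 to 0.452, above the vehicle maximum of 0.172, and the other emodin livers lie within the vehicle range.

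Library totals moved with these levels. Emodin 2, 3 and 6 had the 3 largest totals of the series (44.3, 46 and 48.2 M), and emodin 4 had 38.6 M, as vehicle 8 did, whose median log2 difference was 0.172 against 0.357 in emodin 4. Over the 16 livers Pearson's r between total and member median was 0.80 (Spearman's rho 0.72), and 0.75 (rho 0.61) without the 2 livers farthest from the median total. Within emodin livers r was 0.81 (rho 0.69), and 0.79 (rho 0.54) without 2 livers. Within vehicle livers it was 0.57 (rho 0.60), and 0.29 (rho 0.26) without 2 livers, so there the relation rested on those livers. These are descriptions of 1 relation and no p is given. With the library total as a covariate, 0 of the 75 genes passed in edgeR and 0 had an unadjusted p under 0.05, against 15.7% of all entries that were then higher. The members' median log2 fold change was 0.03, and 53 of the 75 were above 0, against 73 in the main fit. Of all entries, 6.92% still rose (11% changed in either direction). With only the livers whose total did not exceed the highest vehicle total (all 8 vehicle livers and emodin 1, 4, 5, 7 and 8), an alternative chosen after seeing the data, 0 members passed in edgeR and 1 had an unadjusted p under 0.05. Their median was 0.08 and 70 of the 75 were above 0. Of all entries, 6.38% rose and 10.2% changed in either direction. At an unadjusted p under 0.05, 15.6% of all entries were higher. The share of all entries above 0 is not given for either fit. Treatment and library total can therefore not be told apart for these genes.

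**Figure D2:**
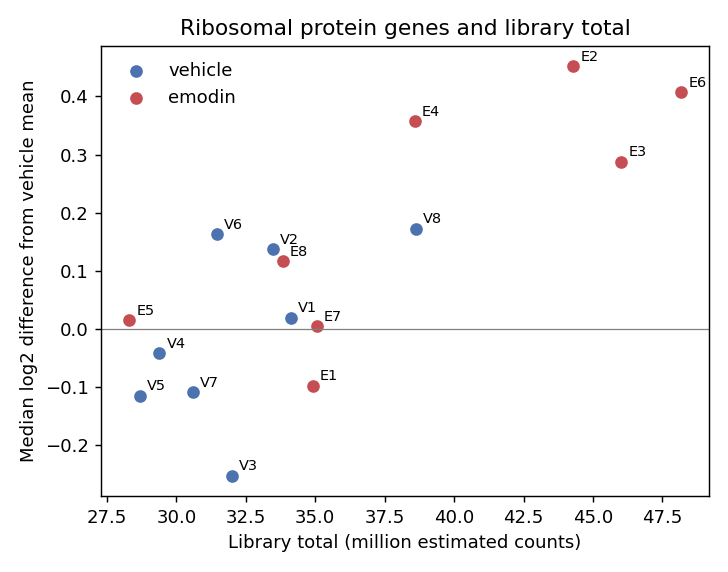
Library total in M (mega) estimated counts (x) against the median log2 difference of the 75 genes from the vehicle mean (y), 1 point per liver (V, vehicle; E, emodin). The 3 livers above 40 M are all emodin livers and have medians of 0.287 to 0.452, and E4 lies above V8 at the same total of 38.6 M.

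Among the genes that rose, Rps27, which encodes a zinc-finger protein of the small subunit, had the largest fold change. It was at 49.9, 67.9 and 94 CPM (lowest, median and highest) in vehicle livers and at 73.9, 173, 160, 139, 72.7, 132, 87.7 and 70.8 CPM in emodin livers 1 to 8. Emodin 2, 3, 4 and 6 lay above every vehicle liver and the other 4 within the vehicle range. The log2 fold change was 0.71 ± 0.20 (SE, edgeR adjusted p = 0.0305). Rps26, whose protein lines the channel where mRNA leaves the small subunit, had 128, 138 and 190 CPM in vehicle livers and 154, 214, 198, 191, 149, 227, 164 and 187 CPM in emodin livers 1 to 8, with emodin 2, 3, 4 and 6 above every vehicle liver. Its log2 fold change was 0.34 ± 0.10 (edgeR adjusted p = 0.0356). Rps10, a protein of the head of the small subunit that is ubiquitinated when ribosomes collide, had 83.6, 91.1 and 108 CPM in vehicle livers. In emodin 2, 3, 4 and 6 it had 134, 131, 128 and 136 CPM, all above the vehicle range, and in the other emodin livers 97.8 to 103 CPM (log2 fold change 0.32 ± 0.09, edgeR adjusted p = 0.0343).

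Of the large subunit, Rpl37 had 77.1, 93.6 and 120 CPM in vehicle livers and 107, 160, 144, 148, 103, 162, 104 and 102 CPM in emodin livers 1 to 8. The same 4 emodin livers were above every vehicle liver, and the log2 fold change was 0.42 ± 0.12 (edgeR adjusted p = 0.0356). Rpl12, which lies at the base of the stalk that receives translation factors, had 102, 122 and 130 CPM in vehicle livers and 116, 161, 171, 192, 104, 176, 125 and 171 CPM in emodin livers 1 to 8. Here emodin 8 was high as well, so 5 emodin livers were above every vehicle liver (log2 fold change 0.37 ± 0.12, edgeR adjusted p = 0.0462). Rpl27 also had 5 emodin livers above the vehicle range of 90.6 to 119 CPM, emodin 2, 3, 4, 6 and 8 at 158, 128, 150, 151 and 127 CPM (0.34 ± 0.10, edgeR adjusted p = 0.0287). On mm10 in GENCODE M21 these 6 protein-coding genes lie on chromosome 3 from 90212522 to 90213651 (Rps27), on chromosome 10 from 128624534 to 128626747 (Rps26) and on chromosome 17 from 27630418 to 27636669 (Rps10). The others lie on chromosome 15 from 5116645 to 5119140 (Rpl37), chromosome 2 from 32961559 to 32965345 (Rpl12) and chromosome 11 from 101442298 to 101445529 (Rpl27). Every one of the 6 calls was lost with the library total as a covariate, where the log2 fold changes were 0.27, 0.15, 0.17, 0.14, 0.18 and 0.12 for Rps27, Rpl37, Rpl12, Rps26, Rpl27 and Rps10 (edgeR adjusted p = 0.33, 0.307, 0.357, 0.278, 0.2 and 0.281). Each was also lost without emodin 2, without emodin 4, without vehicle 3, without vehicle 4 and without vehicle 7. Of the 16 fits that left out 1 liver, the Rpl12 call was lost in 13 and the Rps26 call in 9. The calls of Rpl37 and Rps10 were lost in 7 each, and those of Rps27 and Rpl27 in 6 each. Rpl12 also lost its call in 8 of 13 alternatives.

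**Figure D3:**
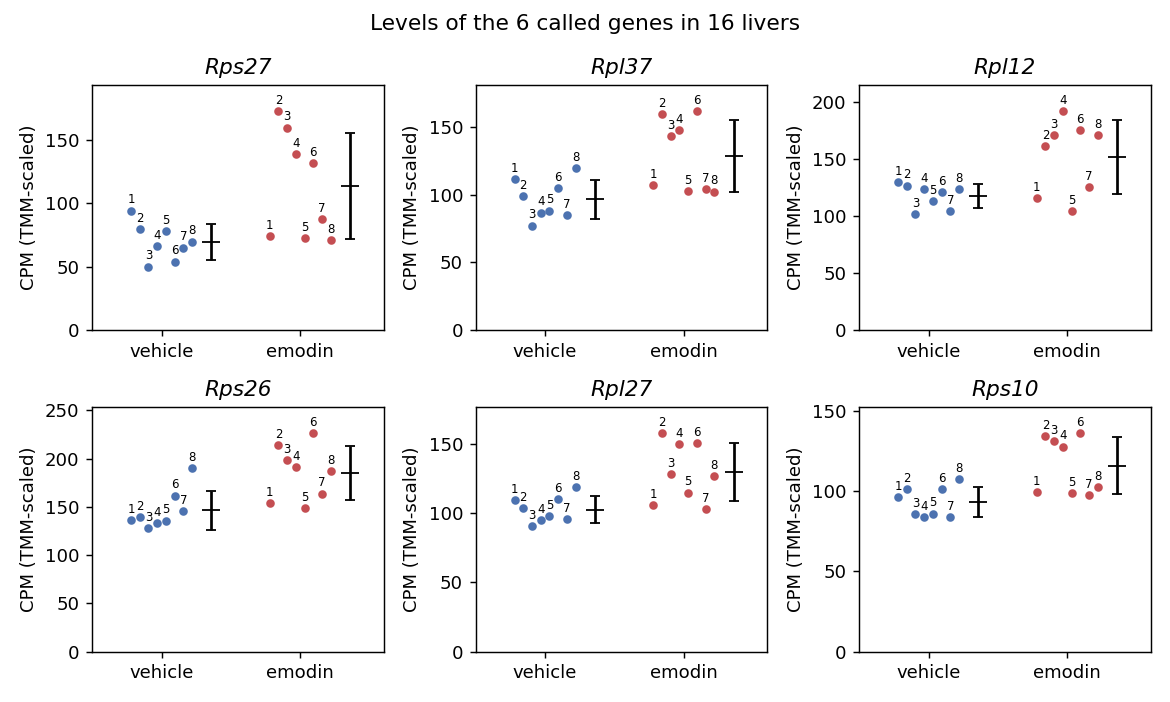
Levels in TMM-scaled CPM (y) of the 6 genes that passed the test, 1 numbered point per liver, with the mean and SD (n = 8) to the right of each group. Emodin 2, 3, 4 and 6 lie above every vehicle liver in all 6 genes, and in Rpl12 and Rpl27 emodin 8 does too.

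The largest fold changes among the 75 were not those that passed. Rpl21 and Rpl38, named here after their values were seen, had log2 fold changes of 0.81 ± 0.32 and 0.76 ± 0.27 (edgeR adjusted p = 0.103 and 0.0708). Rpl38, a large-subunit protein known from mouse skeletal patterning, was at 32.1, 45.4 and 67.7 CPM in vehicle livers and at 34.9, 122, 109, 106, 48.3, 121, 57.2 and 43.2 CPM in emodin livers 1 to 8. Rpl21 was at 14.1, 24.4 and 40.6 CPM in vehicle livers, at 79.3, 55, 63.5 and 63.7 CPM in emodin 2, 3, 4 and 6, and at 18.2 to 27.5 CPM in the other emodin livers. In both genes those 4 livers exceeded the vehicle range and the other 4 did not. The genes closest to the threshold without passing were Rpl29, Rps21 and Rplp0, with log2 fold changes of 0.44 ± 0.15, 0.51 ± 0.17 and 0.18 ± 0.06 (edgeR adjusted p = 0.051, 0.0582 and 0.0664). Rps2 had the lowest fold change of all, at 421, 455 and 493 CPM in vehicle and 411 to 486 CPM in emodin livers, which gave -0.02 ± 0.07 on the log2 scale (edgeR adjusted p = 0.848). Only emodin 5 lay outside the vehicle range, below it.

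**Figure D4:**
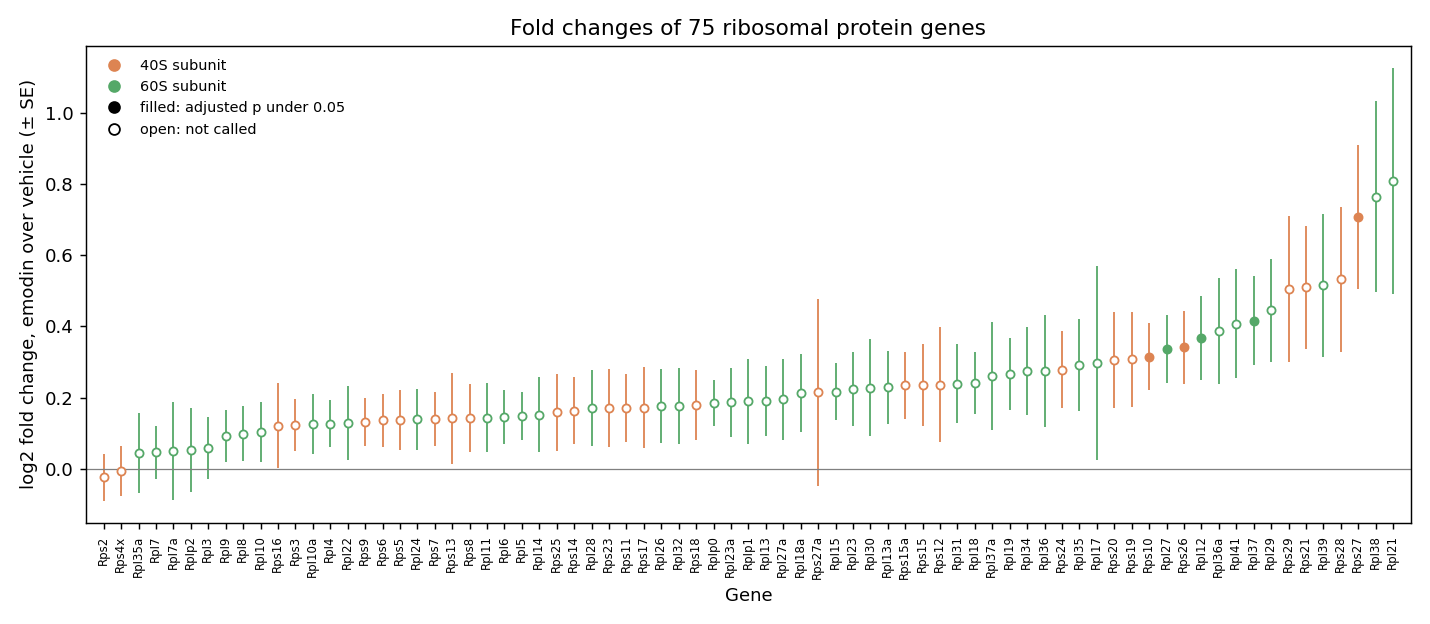
Log2 fold change of emodin over vehicle (y, with ± SE) for the 75 genes in rising order, coloured by subunit; filled points passed the test. Values run from -0.02 (Rps2) to 0.81 (Rpl21), 73 are above 0, and the 6 that passed lie between 0.32 and 0.71.

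The stalk genes, whose proteins form the arm of the large subunit that recruits elongation factors, did not pass the test. Rplp0, the anchor of the stalk, was at 281, 301 and 317 CPM in vehicle livers and at 323, 341, 351, 365, 325, 376, 303 and 346 CPM in emodin livers 1 to 8. It was above every vehicle liver in 7 of 8, all but emodin 7, more livers than for any other member. Rplp1 had 121, 149 and 183 CPM in vehicle livers and 134 to 216 CPM in emodin livers (log2 fold change 0.19 ± 0.12, edgeR adjusted p = 0.297), and Rplp2 had 36.9 to 56 CPM and 33.6 to 60.3 CPM (0.05 ± 0.12, edgeR adjusted p = 0.8).

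Members differed in level per length, taken as CPM per kilobase of the annotated principal transcript, with a median of 191 in vehicle livers. The highest were Rpl10, Rpl41, which encodes a very short basic peptide between the subunits, and Rps2, at 487 ± 39.8, 474 ± 74.9 and 458 ± 27.3 CPM per kilobase (SD, n = 8 vehicle livers), so neighbours in this order differed by less than their spread. The lowest were Rps20, Rpl21 and Rpl17, at 24.2 ± 4.05, 27.9 ± 8.69 and 56.3 ± 16.7 CPM per kilobase, of which the first 2 also differed by less than their spread. The value of Rps20 rests on an annotated transcript of 3706 bases, the longest of any member, while the median was 681. Rpl17 was at 28.2, 41.2 and 66.8 CPM in vehicle livers and at 126 CPM in emodin 2, against 35.4 to 70.4 CPM in the other emodin livers, and its log2 fold change of 0.30 ± 0.27 (edgeR adjusted p = 0.493) was -0.01 without emodin 2.

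Ribosomal protein genes have many processed copies in the mouse genome, so reads can be shared, and how the submitters treated such reads is not stated. In GENCODE M21, 74 of the 75 principal transcripts shared at least 1 window of 50 bases with a transcript of another gene, with a median of 55.5% of windows. Rps27 shared 98.6% of its windows with 9 other genes and Rps10 92.4% with 3, so these 2 values are uncertain one by one. Rpl10, Rps2, Rpl17 and Rpl29, named above, shared 92.1%, 79.0%, 78.7% and 78.5% with 15, 71, 51 and 82 genes, so the same holds there. Rpl27 shared 64.1% with 11 genes, Rpl12 49% with 14, Rps26 37.8% with 4 and Rpl37 31.3% with 6. Across members, the log2 fold change had a Spearman rho of -0.08 with the shared percentage, -0.37 with transcript length, 0.10 with GC content and -0.50 with the vehicle CPM (75 genes of the same libraries, which are not independent, and no p is given). The 28 genes with transcripts under 600 bases had a median log2 fold change of 0.24 and the other 47 of 0.17. After a smooth trend of level with transcript length was removed in each library, the median over all 75 was 0.11, against -0.003 over all entries. In that fit 10 members passed in edgeR and 69 were above 0. No share of all entries is given for it, so these counts cannot be read as a result about the members.

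The genes of ribosome production outside the list did not all follow the same livers. For the edgeR counts that follow, the background is 7.7% of all entries higher and 5.47% lower. No such share is given for DESeq2. Of the ribosomal protein genes Rpsa, Fau and Rps3a1, 0 passed in edgeR and 1 had an unadjusted p under 0.05; their log2 fold changes were 0.26 ± 0.09 for Rpsa, 0.21 ± 0.16 for Fau and 0.06 ± 0.07 for Rps3a1. DESeq2 called 1 of these 3 higher (Rpsa, adjusted p = 0.034). Fau encodes a fusion with a ubiquitin-like protein. Of the 21 elongation factors and other TOP mRNAs, 0 passed in edgeR and 1 in DESeq2, 2 had an unadjusted p under 0.05, and the median was 0.09. Eif3k and Nap1l1, the 2 with the smallest p, had log2 fold changes of 0.23 ± 0.08 and 0.28 ± 0.11 (edgeR adjusted p = 0.0551 and 0.111). Mitochondrial ribosomal protein genes, a set of nuclear genes for the other ribosome of the cell, rose in 1 of 78 members (Mrps18b, 0.48 ± 0.11, edgeR adjusted p = 0.0114) and fell in 0, with a median of 0.07. DESeq2 called 4 of the 78 higher and 2 lower. Of 5 tested paralogs of ribosomal proteins, 0 passed in edgeR and 0 had an unadjusted p under 0.05.

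Ribosome assembly genes rose in 10 of 41 members and 0 fell, with a median log2 fold change of 0.28 (background 7.7% of entries higher). Nmd3, the export adaptor of the large subunit, rose from 26.9 ± 2.68 to 33.2 ± 2.66 CPM (SD, n = 8 each). It had 8 of 8 emodin livers above every vehicle liver, against 0.937% of all entries. At least 4 emodin livers were above every vehicle liver in 18.3% of all entries. Rrp1b rose by 0.63 ± 0.15 on the log2 scale with 7 of 8 above. Fbl, the methyltransferase fibrillarin, rose by 0.29 ± 0.07 with 6 of 8, and Nhp2, a core protein of pseudouridylation particles, by 0.43 ± 0.12 with 5 of 8 (edgeR adjusted p = 0.0105, 0.0144, 0.0174 and 0.0257 for Nmd3, Rrp1b, Fbl and Nhp2). With the library total as a covariate 14 of the 41 passed, with a median of 0.36, and 17 passed in the livers up to the highest vehicle total, with 0.35. The count was lower in other settings, at 3 with array weights (median 0.12), 4 with total counts as scaling, 5 with quantile normalization and 6 with upper-quartile scaling. Leaving out 1 liver gave 3 (without emodin 4) to 15 (without emodin 3) calls. It gave 4 without emodin 2 or vehicle 5, 5 without emodin 8 or vehicle 2, 3, 4, 7 or 8, and 6 without emodin 5. The livers also differed from those of the ribosomal protein genes: the median log2 difference of the assembly genes was 0.312, 0.474, 0.457 and 0.633 in emodin 2, 4, 5 and 8, and 0.0351, -0.00206, 0.0703 and 0.0621 in emodin 1, 3, 6 and 7. So emodin 5 and 8 were high for assembly genes and within the vehicle range for ribosomal protein genes in these TMM-scaled medians. Emodin 3 and 6 were the reverse, within the vehicle maximum of 0.139 for assembly genes. The 8 interferon response markers, of which 8 rose in edgeR, summed to 786, 1831, 1388 and 1842 CPM in emodin 2, 4, 5 and 8. They summed to 133 to 167 CPM in the other emodin livers, against 101 to 189 CPM in vehicle livers. Their part in these results was not tested.

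Initiation factor genes rose in 9 of 26 members and 0 fell, against 7.7% of all entries higher, with a median of 0.15. Eif6, which keeps the subunits apart until the large one is mature, rose from 28.2 ± 1.96 to 45.5 ± 15.3 CPM (log2 fold change 0.69 ± 0.16). Also higher were the helicase gene Eif4a1 (0.42 ± 0.11), and Eif2b4 and Eif2b3 of the exchange factor for the initiation factor that brings the first tRNA (0.36 ± 0.09 and 0.53 ± 0.14; edgeR adjusted p = 0.0122, 0.0194, 0.0143 and 0.0193 for Eif6, Eif4a1, Eif2b4 and Eif2b3). With the library total as a covariate 7 passed, with array weights 5, and with quantile normalization or total counts as scaling 4. Leaving out 1 liver gave 5 (without emodin 4) to 11 calls. RNA polymerase I and its factors rose in 1 of 13 members (Cd3eap, 0.61 ± 0.20, edgeR adjusted p = 0.0494). Cd3eap was at 7.08, 8.2 and 8.12 CPM in emodin 2, 4 and 8, and the other emodin livers lay within the vehicle range of 2.68 to 4.75 CPM. Its call was lost in 10 of 13 alternatives, the library total as a covariate among them, and in 10 of 16 fits that left out 1 liver, among them those without emodin 2, 4 or 8. Among mTOR pathway genes 3 of 19 rose and 3 fell, against 7.7% and 5.47% of all entries. With the library total as a covariate 0 rose and 1 fell, and without emodin 2 or without emodin 4 1 rose and 0 fell. Eif4ebp1, which encodes an inhibitor of cap-dependent initiation, rose by 0.55 ± 0.12, and its relative Eif4ebp2 fell by 0.47 ± 0.14 (edgeR adjusted p = 0.00918 and 0.0305). For Eif4ebp2 no emodin liver was as high as the lowest vehicle liver. By a looser rule, at least 4 emodin livers were below every vehicle liver in 15.9% of all entries. The share of all entries with all 8 below is not given. Akt1 rose by 0.17 ± 0.05, and Sesn3, which encodes a sestrin that restrains mTOR, fell by 0.44 ± 0.13 (edgeR adjusted p = 0.0323 and 0.0329). The call of Akt1 was lost in 8 of 13 alternatives and without emodin 2, emodin 4 or vehicle 2, 6 or 7. That of Sesn3 was lost in 5 of 13 alternatives and in 7 of 16 fits that left out 1 liver. Eif4ebp2 kept its call in all 13 alternatives but lost it in 4 of those 16 fits. In the MYC and MAX network 3 of 10 rose and 0 fell: Myc by 3.21 ± 0.66, its antagonist Mnt by 0.91 ± 0.12 and Mlx by 0.36 ± 0.06 (edgeR adjusted p = 0.00747, 0.000269 and 0.00086). Myc was at 31.3, 52.7, 79.6 and 68.9 CPM in emodin 2, 4, 5 and 8, and at 4.11 to 7.57 CPM in the other emodin livers, against 2.1 to 5.99 CPM in vehicle livers. These 4 livers are those with the high interferon markers. With array weights its log2 fold change was 1.63 (limma adjusted p = 0.101), and its call was lost in 3 of 13 alternatives. Of the p53 and MDM2 genes, 1 of 4 rose (Cdkn1a, 2.16 ± 0.58, edgeR adjusted p = 0.026). Cdkn1a, which encodes an inhibitor of the cell cycle, was at 27.4, 37.6, 33.5 and 49.5 CPM in the same 4 livers. In the other emodin livers it was at 3.61 to 6.09 CPM, within the vehicle range of 1.09 to 8.2 CPM. Its call was lost in 4 of 13 alternatives, with 0.93 (limma adjusted p = 0.287) under array weights, and without emodin 4 (edgeR adjusted p = 0.0533).

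**Figure D5:**
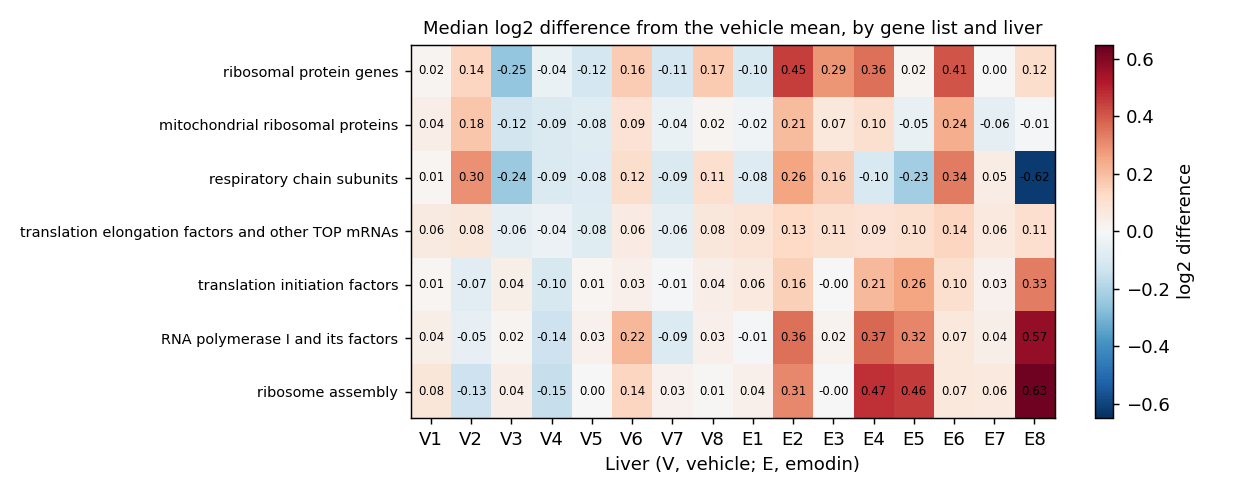
Median log2 difference from the vehicle mean for 7 gene lists (rows) in the 16 livers (columns; V, vehicle; E, emodin), printed in each cell. Ribosomal protein genes are highest in E2, E3, E4 and E6, and ribosome assembly genes in E2, E4, E5 and E8.

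Other sets of nuclear housekeeping genes give the scale of such shifts. Respiratory chain subunits, whose transcripts are about as short (a median of 683 bases against 681), had 0 of 75 calls in edgeR (6 had an unadjusted p under 0.05; DESeq2 called 0 higher and 2 lower) and a median log2 fold change of -0.01. After length correction the median was -0.11 with 6 lower in edgeR, and with the library total as a covariate -0.23 with 2 lower, while array weights gave 0.10 and 0 calls. Their medians per liver were 0.259, 0.158 and 0.335 in emodin 2, 3 and 6, -0.1 in emodin 4 and -0.621 in emodin 8. Vehicle livers ran from -0.24 to 0.298, so only emodin 6 and emodin 8 lay outside the vehicle range. Atp5g3 and Cox5a, the 2 with the smallest p, had -0.29 ± 0.10 and -0.31 ± 0.11 (edgeR adjusted p = 0.0512 and 0.0708). Proteasome subunits rose in 3 of 38 members, Psmd8 (0.44 ± 0.09), Psmb10 (0.65 ± 0.17) and Psmb8 (0.88 ± 0.24; edgeR adjusted p = 0.0045, 0.023 and 0.0252), and 0 fell. That share is near the 7.7% of all entries that rose. The proteasome medians were 0.242, 0.299, 0.274 and 0.268 in emodin 2, 4, 5 and 8, the livers with high interferon markers, and -0.127 to 0.0558 in the other emodin livers. In the paralog list Rpl36al and Rpl7l1 had 0.16 ± 0.09 and 0.09 ± 0.08 (edgeR adjusted p = 0.233 and 0.508). The hepatocyte markers, 6 in the table, summed to 97054 to 125361 CPM in vehicle livers and 56237 to 102641 CPM in emodin livers, with 56237 CPM in emodin 4. Most of that sum is Alb, the 1 marker that fell in edgeR (84492 ± 9773 to 59544 ± 13435 CPM, adjusted p = 0.0309). Hnf4a stood at 0.36 on the log2 scale of fold changes (edgeR adjusted p = 0.0607), Apoa1 at -0.04, Serpina1c -0.12, Cyp2e1 -0.12 and Ttr -0.23. Neutrophil markers summed to 1.15 to 5.52 CPM in vehicle and 2.22 to 7.12 CPM in emodin livers, and T, NK and B cell markers to 4.87 to 14.2 and 2.16 to 5.4 CPM. Kupffer cell markers summed to 133 to 572 and 190 to 491 CPM, erythroid markers to 164 to 506 and 129 to 318 CPM, and endothelial markers to 122 to 184 and 123 to 189 CPM. Stellate cell markers summed to 145 to 378 and 124 to 252 CPM, cholangiocyte markers to 37.7 to 65.9 and 33.6 to 173 CPM, and those of dividing cells to 3.45 to 11.8 and 4.17 to 13.2 CPM. Among these markers 1 lymphocyte and 1 endothelial gene fell in edgeR, and the part of these cell types in the results was not tested.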

How the data were processed

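RNA of 8 emodin and 8 vehicle liver libraries was analysed from a table of estimated counts per gene deposited by the authors. Its name speaks of FPKM, but the values are whole numbers whose column totals differ, scaled neither by depth nor by length, so the planned count test was used and rounding changed nothing. The submitters' processing notes name HISAT2, Cufflinks 2.2.1, HTSeq 0.6.1, cutadapt 1.9.1, SAMtools 0.1.19 and mm10, with no roles. The annotation and the treatment of shared reads are not given in the sources used here. All 16 columns were used and none left aside.

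The test was that of edgeR 4.0.16 under R 4.3.3 (filterByExpr, TMM, robust quasi-likelihood F test, group as the single term), with Benjamini-Hochberg adjustment over 14308 entries and a threshold of 0.05. SE was derived from F, as the size of the log2 change over its square root. Levels are CPM after TMM scaling, and the log2 levels of figures had 0.1 CPM added. Lengths came from GENCODE M21 (shortest transcript of the best APPRIS rank; 89.8% of tested entries). The edgeR procedure was tested on simulated data. Alternatives used limma 3.58.1, DESeq2 1.42.0 and other edgeR settings. The replicate numbers are shared by both groups but do not pair the livers: same-numbered livers correlated from -0.15 to 0.25.

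Named genes were the 4 starting genes (Rps27, Rpl37, Rpl12, Rps26), all members called, the 3 next by adjusted p, the 3 highest and lowest per length, the stalk genes, 3 with other symbols (a further planned gene is not reported here), and up to 4 called (or 2 uncalled) genes of each other list. Members and lists were chosen with earlier results of these data known. No set test was run, so lists are described by counts and medians.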

Additional observations from a re-analysis of the deposited data

Results flagged for a closer look

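Groups of 8 livers were searched for a liver far from the others (Dixon's test of the gap over the range, at its 95% critical value), which chance gives in about 1 in 20 groups; 4 were found among 98 groups of values. Rpl17 stood at 126 CPM in emodin 2, against 35.4 to 70.4 CPM in the other emodin livers. Nap1l1 of the TOP mRNA list stood at 97.1 CPM in emodin 8 (others 49.0 to 68.7 CPM). The MYC antagonist gene Mnt was at 3.45 CPM in vehicle 4 (others 4.87 to 5.92 CPM), and the respiratory chain gene Cox5a at 138 CPM in vehicle 2 (others 86.5 to 109 CPM).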

How the results depend on the processing

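The count of members that rose, 6, was 12 in DESeq2, 11 with array weights and 10 with transcript-length correction, but 2 with upper-quartile scaling and 0 with the library total as a covariate or only livers up to the highest vehicle total. Entries called also moved, from 1253 to 2532 over 13 alternatives against 1884 in the main fit, so the background of these counts was not fixed. A share of all entries is given above for the last 2 of these settings only. Over single livers left out, the count of members was 0 to 13. It was 0 without emodin 2 or 4 or vehicle 3, 4 or 7, 1 without vehicle 5, 2 without emodin 6, and 13 without emodin 1 or 7. The cause was not tested. With the replicate block 2 members rose (Rpl29 and Rps26), and 2 with the block and length correction together, where the entries called numbered 1253 in place of 1884; the numbers do not pair the livers. The block left 4 calls among ribosome assembly genes (10 without it), 5 among initiation factors (2 with length correction; 9 without the block) and 0 in the RNA polymerase I and p53 lists. It ended the calls of Myc (2.45, edgeR adjusted p = 0.065), Cdkn1a (1.70, 0.0653), Cd3eap (0.55, 0.0873), Akt1 (0.17, 0.0782), Rrp1b (0.59, 0.0543), Eif4a1 (0.40, 0.0556) and Sesn3 (-0.45, 0.0524), and made one of Eif3k (0.23, 0.0493). Over single livers left out, 1246 (without emodin 4) to 2200 entries were called. The median of the members stayed above 0 in each alternative (0.14 to 0.23 over single livers) and was 0.033 with the library total as a covariate. The difference in share of counts, 0.189 percentage points, was 0.147 to 0.224 over single livers. Counts of members that fell were 0 in all alternatives.

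Signs turned for 6 genes, none of them called. Rps2 had 0.00053 with quantile normalization and 0.0080 with total counts. Rpl17 had -0.012 without emodin 2 and up to 0.41 without vehicle 6. Rplp2 had -0.069 with length correction, -0.045 with the library total, -0.031 in livers up to the vehicle maximum, -0.079 with the replicate block and length correction, -0.010 without emodin 2 and -0.0010 without emodin 4, up to 0.11 without emodin 1. Fau had -0.077 and -0.040 with the library total and in livers up to the vehicle maximum, Rps3a1 -0.00060 with the library total, and Rpl7l1 -0.026 with array weights.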

Other observations

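Among the 75 members, 4 further genes, named after their values were seen, had 1 liver far from the others of its group. Rps27a, which encodes a ribosomal protein fused to ubiquitin, was at 132 CPM in emodin 8 against 51.7 to 81.9 CPM in the other emodin livers, and vehicle 1 was at 143 CPM, so its groups overlapped throughout. Rps4x was at 264 CPM in emodin 8 (others 194 to 223 CPM). Rpl7a was at 36.6 CPM in emodin 5 (others 58 to 75.9 CPM), and Rpl30 at 127 CPM in vehicle 2 (others 77.3 to 100.2 CPM).

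Members whose annotated transcript begins with C and 4 pyrimidines (11 genes) had a median log2 fold change of 0.26, and the other 64 had 0.18. The 10 members with CTTTCC near the start had 0.24 and the 45 without it 0.18. The 22 with CCGGAAG had 0.23 and the 33 without it 0.17. These differences between sets of members were not tested.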
